A study of Homo sapiens with 12 samples.

Results

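Lysosomes are acidic organelles in which hydrolases break down proteins, glycans and lipids, and a proton pump in their membrane, the V-ATPase, keeps them acidic. Macroautophagy delivers cytoplasm to them: initiation kinases and lipid-binding proteins start a membrane, a conjugation system attaches ATG8-family proteins (the LC3 and GABARAP proteins) to it, cargo receptors link cargo to those proteins, and the closed autophagosome fuses with the lysosome. The basic helix-loop-helix factors TFEB, TFE3 and MITF, together called MiT factors, are known as transcriptional regulators of genes of both systems.

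The 45 genes described here were chosen by name to cover these roles: the MiT factors, lysosomal membrane proteins, cathepsins, glycan and lipid hydrolases with their activator PSAP, V-ATPase subunits, cargo receptors, the ATG8 family, initiation and membrane supply, conjugation, lysosome tethering, and a pair of p53-inducible autophagy regulators. Earlier results of these data were known when they were chosen, so the counts below are a description of these genes. All 45 were found among the 62754 Ensembl gene identifiers of the count table, and each is a protein-coding gene in GENCODE 29. All 45 passed the filter on low counts (at least 10, scaled for depth), TP53INP1 only through the erlotinib-treated groups and CTSS only through groups other than untreated WT.

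RNA was measured in PC9, a human lung adenocarcinoma cell line driven by mutant EGFR, with 3 libraries in each of 4 groups. Untreated WT cells carry wild-type TDP1, the phosphodiesterase that removes trapped topoisomerase from DNA ends. DTC (drug-tolerant cells) are the same cells after 7 days in 1 µM erlotinib, an EGFR kinase inhibitor, and DTEC (drug-tolerant expanded cells) after 28 days in the same dose. KO is the TDP1 knockout line KO2 without drug. All groups trace to 1 subclonal PC9 line, replicates were split from 1 flask and then grown apart, KO is a single knockout line, and all libraries are labelled as 1 batch, so p-values measure the spread between such sister cultures.

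Library totals ran from 25572691 to 38373679 estimated counts. TDP1 itself was at 26.3 ± 1.60 CPM (counts scaled to the library's total, mean ± SD, n = 3) in untreated WT and 10.8 ± 0.647 CPM in KO (log2 fold change -1.29, adjusted p = 1.3e-05), so KO kept part of its TDP1 transcript. TDP1 was also lower in DTC, at 13.96 ± 1.56 CPM (-0.92, adjusted p = 3.56e-06), and at 26.6 ± 1.54 CPM in DTEC. EGFR was at 1501 ± 73.7 CPM in untreated WT and 612 ± 225 CPM in DTC, and the proliferation marker MKI67 at 364 ± 9.88 and 83.1 ± 31.1 CPM. All 6 epithelial markers examined (EPCAM, CDH1 and the keratins KRT7, KRT8, KRT18 and KRT19) had group means of 285 to 4604 CPM. In DTC 4 of the 6 were called lower and 0 higher, and their sum was 6293 to 7277 CPM against 10794 to 11395 CPM in untreated WT. From DTC to DTEC 4 of the 6 rose, and the DTEC sum was 9276 to 12151 CPM. The 3 endothelial markers summed to between 58.5 and 61.4 CPM in untreated WT, between 41.9 and 49.5 CPM in DTC and between 122 and 142 CPM in DTEC. Of these, PECAM1 fell in DTC and rose in DTEC (group means 32.0, 8.77 and 92.1 CPM), VWF rose at both times at no more than 1.57 CPM, and CDH5 was not called (27.7, 35.0 and 36.7 CPM). DTC also differed in the share of counts from mitochondrial genes, which was 4.43% to 5.41% against 2.5% to 2.77% in untreated WT and 1.82% to 2.38% in DTEC. The part of these differences in the results below was not tested.

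Most of the lysosome and autophagy genes were higher after 7 days of erlotinib, and most of those were still above the untreated level at 28 days. In DTC, 30 of the 45 members were called higher and 5 lower at an adjusted p under 0.05, while 67.3% of all 17115 genes tested were called in that comparison (34% higher, 33.3% lower). A fold change of at least 2 was reached by 16 of the higher and 2 of the lower members, and 22.3% and 13.9% of all genes did so. The members' median log2 fold change was 0.54, and that of all genes was 0.06. Because the RNA is from whole cultures, fewer cells of a kind and less RNA per cell cannot be told apart.

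In DTEC against untreated WT, 25 members were called higher and 3 lower, with 52.3% of all genes called (26% higher, 26.3% lower), and the median was 0.35 over the members and 0.02 over all genes. At 2-fold these counts were 13 and 1, with 13.2% and 6.7% of all genes. DTEC against DTC had 9 members higher and 26 lower, with 55.4% of all genes called (28.8% higher, 26.6% lower) and medians of -0.37 and -0.01. At 2-fold, 1 member was higher and 7 were lower, with 8.1% and 14.3% of all genes. In KO, 4 members were called higher and 0 lower by edgeR, and 4.31% of all genes were called (2.76% higher, 1.55% lower). None of the members reached 2-fold in KO, as 0.964% of all genes did upward and 0.339% downward. At an unadjusted p under 0.05 the KO count was 13 of 45 members, and 16.6% of all genes. The first 2 comparisons and KO share the untreated WT libraries, so their values are set side by side here and not correlated.

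Over the whole set, 21 members were called higher at both times and 2, GLA and ATG16L1, lower at both. Such joint calls were not counted over all genes, and both comparisons share the untreated WT libraries. The joint counts given here are therefore a description of the members without a reference. Of the 21, 13 were lower in DTEC than in DTC, 5 were not called between the 2 times (CTSB, GAA, HEXA, ASAH1 and GABARAP), and 3 were higher again at 28 days (CTSH, NBR1 and WIPI2). The WIPI2 step (0.23, adjusted p = 0.0325) was lost in 10 of 14 alternatives, among them total counts alone (0.04) and each left-out library other than DTC replicate 1 (adjusted p from 0.0722 to 0.191). A further 8 members were called higher in DTC and not called in DTEC: CD63, ATP6V0D1, ATP6V1H, ATP6V1A, SQSTM1, ATG2A, ATG12 and VPS18. Counted by libraries that do not overlap, 31 members were higher and 5 lower in DTC (35.1% and 33.8% of all genes), 29 and 6 in DTEC (31.1% and 31.3%), and 9 and 27 in DTEC against DTC (29% and 27.7%).

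In 3 members the direction against untreated WT turned, with MITF higher and then lower, and CTSL and ATG7 lower and then higher. The remaining members were UVRAG, called lower in DTC alone, CTSD and ATP6AP1, called higher in DTEC alone, and 8 called at neither time (TFE3, LAMP1, MCOLN1, CTSZ, GUSB, ATG9A, BECN1 and ATG5). A call at 1 time and not at the other is not itself a difference between the times, which the DTEC against DTC comparison tests.

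**Figure D1:**
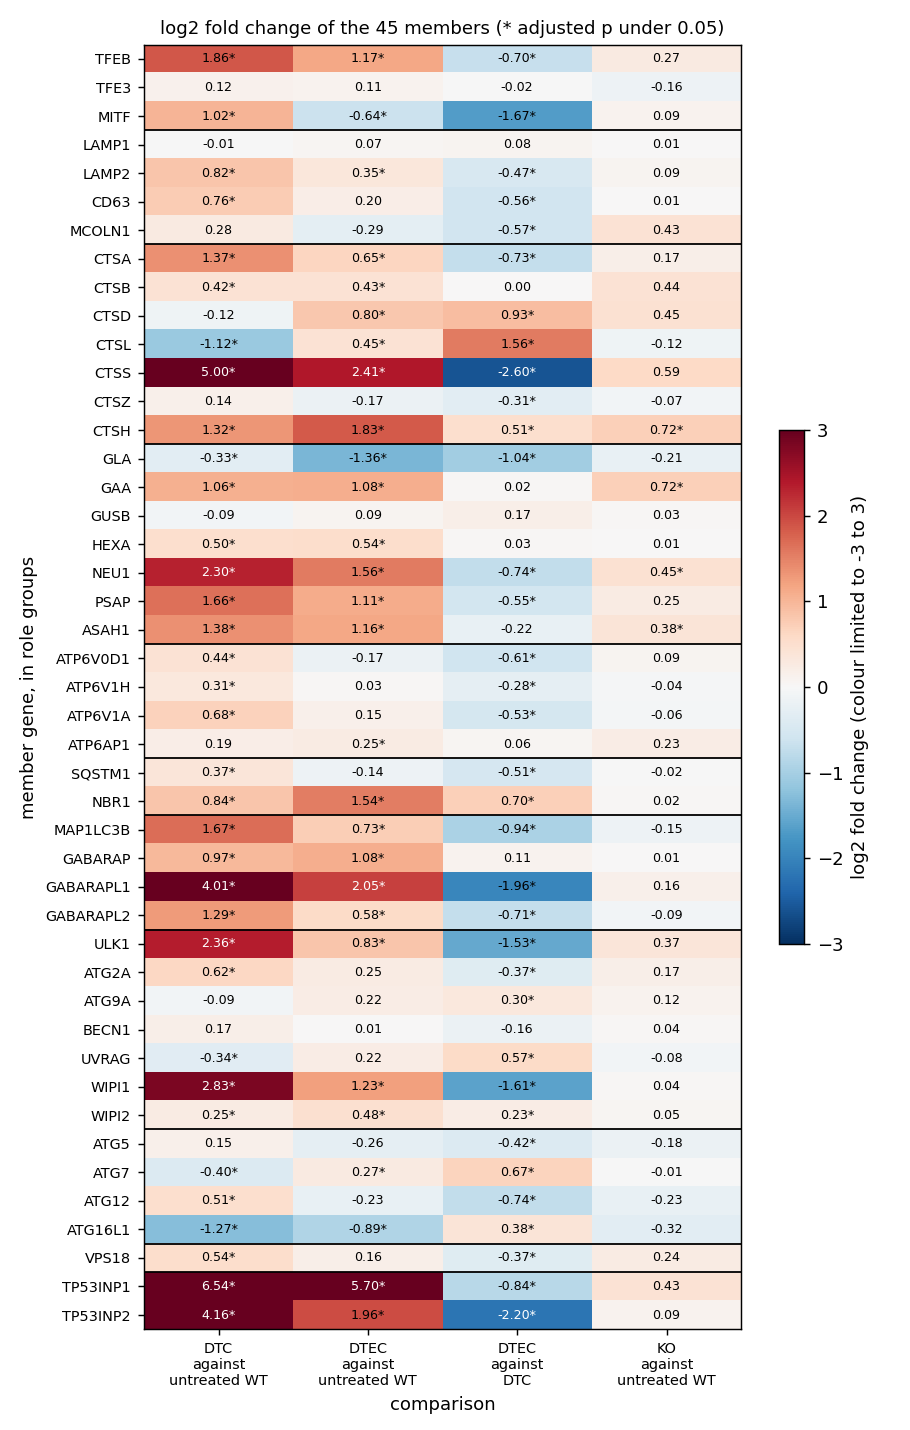
Log2 fold change of each of the 45 genes (rows, in role groups separated by lines) in the 4 comparisons (columns), with an asterisk at an adjusted p under 0.05; the colour stops at -3 and 3. The DTC column holds 30 higher and 5 lower calls, and the KO column 4 higher calls.

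Scaling matters to these counts. With libraries scaled by total counts alone, in place of TMM (trimmed mean of M values), the median of all genes moved by 0.36 in DTC, 0.17 in DTEC and -0.19 in DTEC against DTC. Higher genes then made up 68.4%, 63.7% and 37.4% of the calls in place of 50.5%, 49.7% and 51.9%. The members called higher and lower were then 39 and 2 in DTC, 33 and 2 in DTEC, and 5 and 28 in DTEC against DTC. Upper-quartile scaling shifted the DTC median by 0.29. The 9 members added to the DTC calls by total counts were TFE3, LAMP1, MCOLN1, CTSZ, GUSB, ATP6AP1, ATG9A, BECN1 and ATG5, and UVRAG, GLA and ATG7 left the lower calls.

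TFEB rose, TFE3 was called in no comparison with TMM scaling, and MITF rose and then fell. Per kilobase of its longest coding transcript, TFE3 had the highest level of the MiT factors in untreated WT, 10.7 ± 0.956 CPM per kb, followed by MITF at 1.98 ± 0.132 and TFEB at 0.406 ± 0.0813, and that order was the same in the other groups, although the SD ranges of MITF and TFEB overlapped in DTEC.

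TFEB was at 0.866, 1.28 and 1.01 CPM in untreated WT replicates 1, 2 and 3 (values by library are in that order throughout), at 3.65, 4.06 and 3.75 CPM in DTC, at 1.83, 2.44 and 2.80 CPM in DTEC and at 1.12, 1.36 and 1.3 CPM in KO. Every DTC and DTEC library lay above every untreated WT library, and DTEC lay below DTC. The log2 fold change was 1.86 ± 0.227 (SE) in DTC (adjusted p = 4.95e-06) and 1.17 ± 0.229 in DTEC (adjusted p = 0.000679). The fall from DTC to DTEC, -0.70 ± 0.214 (adjusted p = 0.0129), was not called without DTEC replicate 1 (adjusted p = 0.0576). In KO the libraries overlapped untreated WT (0.27 ± 0.236, adjusted p = 0.628).

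MITF, the factor best known from melanocytes, was at 9.50, 10.2 and 8.91 CPM in untreated WT, 24.2, 16.7 and 17.3 CPM in DTC, 8.28, 5.23 and 4.75 CPM in DTEC and 9.13, 10.8 and 10.6 CPM in KO. The DTC libraries stood above and the DTEC libraries below all untreated WT libraries. Its log2 fold change was 1.02 ± 0.192 in DTC (adjusted p = 0.000288) and -0.64 ± 0.198 in DTEC (adjusted p = 0.0139), and DTEC was below DTC by -1.67 ± 0.198 (adjusted p = 7.86e-06). The lower DTEC level was not called without DTEC replicate 2 (adjusted p = 0.0605), without DTEC replicate 3 (0.0635) or with scaling by total counts alone (0.0549). The 4 melanocyte markers summed to between 1.11 and 1.31 CPM in untreated WT, between 9.33 and 13.4 CPM in DTC and between 2.71 and 3.75 CPM in DTEC, nearly all of it PMEL, whose part in the MITF result was not tested. TYR was at 0 in every group mean and MLANA and DCT were at most 0.0602 CPM. KO had a log2 fold change of 0.09 ± 0.194 for MITF (adjusted p = 0.855).

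TFE3 was at 32.8, 38.8 and 38 CPM in untreated WT, 40.1, 38.6 and 40.6 CPM in DTC, 41.4, 37.9 and 38.7 CPM in DTEC and 31.1, 32.3 and 34.4 CPM in KO. The groups overlapped, and no comparison was called with TMM scaling and the filter described (log2 fold change 0.12 ± 0.0941, adjusted p = 0.264 in DTC; 0.11 ± 0.0942, adjusted p = 0.361 in DTEC; -0.16 ± 0.0944, adjusted p = 0.416 in KO). TFE3 in DTC was called higher with total counts alone (adjusted p = 0.000481), with upper-quartile scaling (0.00119) and with the filter at 1 CPM in 3 libraries (0.0329). In DTEC it was called higher with total counts alone (0.026).

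MiT factors bind the E-box CACGTG, in lysosomal genes often extended to TCACGTG, the core of what is called the CLEAR element. RefSeq promoters (GRCh38.p14, from 250 bases before to 50 bases after the gene start) were at hand for 34 of the 45 members. CACGTG, which reads the same on both strands, was in 8 of those 34 (23.5%), in 23 of 108 promoters of the other pathway genes listed further on (21.3%) and in 7.43% of the 27305 promoters of the table. TCACGTG, on either strand and always overlapping a CACGTG, was in 7 members' promoters (20.6%), in 20.4% of the other pathway genes' and in 3.82% of all. Those 27305 promoters were not limited to the 17115 genes tested, so the shares are not matched for expression. The stretches that hold the motif are printed 5′ to 3′ on the gene's strand with up to 20 flanking bases in lower case and the E-box, with its flanking T or A where present, in capitals, to show where the motif lies in these lysosomal genes.
NEU1 (chr6:31862922-31862967, minus strand): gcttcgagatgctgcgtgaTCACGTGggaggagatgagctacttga
CTSA (chr20:45891273-45891334, plus strand): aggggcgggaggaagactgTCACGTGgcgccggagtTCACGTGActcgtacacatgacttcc
GAA (chr17:80101485-80101575, plus strand): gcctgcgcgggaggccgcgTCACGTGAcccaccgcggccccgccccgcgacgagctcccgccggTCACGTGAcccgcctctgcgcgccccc
ATP6V0D1 (chr16:67481191-67481236, minus strand): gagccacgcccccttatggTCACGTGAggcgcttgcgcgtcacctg
CD63 (chr12:55729164-55729209, minus strand): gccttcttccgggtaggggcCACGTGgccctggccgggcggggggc
CTSD (chr11:1763949-1763994, minus strand): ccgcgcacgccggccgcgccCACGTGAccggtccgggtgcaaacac
MCOLN1 (chr19:7522563-7522623, plus strand): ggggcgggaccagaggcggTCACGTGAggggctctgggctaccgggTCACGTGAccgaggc
LAMP1, first stretch (chr13:113297027-113297122, plus strand): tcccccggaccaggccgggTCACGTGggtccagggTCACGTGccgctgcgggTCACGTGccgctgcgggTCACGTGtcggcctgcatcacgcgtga
LAMP1, second stretch (chr13:113297191-113297236, plus strand): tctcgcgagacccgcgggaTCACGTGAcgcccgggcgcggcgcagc

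The E-boxes printed lay 14 to 192 bases before the gene start, and LAMP1 had 1 further copy, across the start, that is not printed. Of the 8 members with CACGTG, 5 were called higher in DTC (NEU1, CTSA, GAA, ATP6V0D1 and CD63), 0 lower and 3 not called (CTSD, MCOLN1 and LAMP1, which carries the most copies). Of the 26 matched members without it, 15 were called higher, 4 lower and 7 were not called. In DTEC the counts were 4 higher and 4 not called with the motif, and 14 higher, 3 lower and 9 not called without it. Of all genes tested, 34% were higher and 33.3% lower in DTC, and 26% and 26.3% in DTEC. A match is a string of letters and not evidence of binding, and a window without one says nothing of the factor.

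Among lysosomal membrane proteins the changes were below 2-fold. LAMP2, a major glycoprotein of the lysosomal membrane, was at 263, 244 and 269 CPM in untreated WT, 470, 435 and 468 CPM in DTC, and 386, 343 and 259 CPM in DTEC. No DTC library overlapped untreated WT (0.82 ± 0.123 on the log2 scale, adjusted p = 3.72e-05), whereas DTEC replicate 3 lay within the untreated range. The DTEC call (0.35 ± 0.123, adjusted p = 0.0272) was lost without untreated WT replicate 2 (adjusted p = 0.0853), DTEC replicate 1 (0.123) or DTEC replicate 2 (0.0746).

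CD63, a tetraspanin of late endosomes and lysosomes, rose in DTC by 0.76 ± 0.119 (adjusted p = 5.67e-05) and was at 215 ± 14.1 CPM in DTEC against 188 ± 12.9 CPM in untreated WT. LAMP1, the other major lysosomal glycoprotein, stayed between 353 and 365 CPM in untreated WT, 321 and 394 CPM in DTC and 366 and 395 CPM in DTEC, and was not called. MCOLN1, a calcium channel of the lysosomal membrane, was at 9.59, 12.6 and 11.6 CPM in untreated WT, 12.6, 14 and 14.4 CPM in DTC and 7.55, 8.98 and 11 CPM in DTEC. It was called in DTEC against DTC alone, where all DTEC libraries were below all DTC libraries (-0.57 ± 0.149, adjusted p = 0.00497).

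The cathepsins, the lysosomal proteases, moved in different directions from each other. In DTC 4 of 7 were called higher and 1 lower, in DTEC 6 higher and 0 lower, and between DTC and DTEC 3 rose and 3 fell. Of all genes, 34% and 33.3% were called higher and lower in DTC. These shares were 26% and 26.3% in DTEC, and 28.8% and 26.6% between DTC and DTEC. Per kilobase, CTSD (133.5 ± 19.6 CPM per kb) and CTSZ (130.7 ± 6.60) had the highest and overlapping levels in untreated WT. In DTC, CTSA was first at 163.5 ± 19.1 and CTSL, at 36.3 ± 6.20, had rank 5, and in DTEC CTSD was first at 232.9 ± 64.4 CPM per kb.

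CTSS, a cysteine protease best known from antigen-presenting cells, was nearly silent in untreated WT, at 0.329, 0.337 and 0.808 CPM (10 to 28 counts). It was at 13.6, 16.9 and 17.7 CPM in DTC, 3.81, 2.83 and 1.37 CPM in DTEC and 0.877, 0.809 and 0.581 CPM in KO. All DTC libraries were above all DTEC libraries, which were above all untreated WT libraries. On the log2 scale it changed by 5.00 ± 0.384 in DTC (adjusted p = 7.06e-08), 2.41 ± 0.392 in DTEC (adjusted p = 0.000175) and -2.60 ± 0.32 in DTEC against DTC (adjusted p = 1.47e-05).

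Of 9 macrophage and blood cell markers, the sum was between 7.87 and 8.51 CPM in untreated WT, between 23.5 and 28.2 CPM in DTC and between 4.12 and 6.21 CPM in DTEC. The DTC sum was mostly CSF1R (mean 9.57 CPM, against 0.384 CPM in untreated WT) and ITGAM (10.4 against 1.3 CPM). MARCO was at 5.04 against 6.32 CPM and CD14 at 0.738 against 0.173 CPM. The defining markers CD163 and C1QA were at 0 in every group mean, and PTPRC, MRC1 and AIF1 did not exceed 0.146 CPM. The 6 fibroblast markers summed to between 7.99 and 8.91 CPM in untreated WT and between 55.0 and 57.6 CPM in DTC, nearly all COL1A1, with COL1A2, COL3A1 and DCN at most 0.0422 CPM. The part of such markers in the CTSS result was not tested.

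CTSL, a broad cysteine protease, fell and then overshot. It was at 188, 167 and 160 CPM in untreated WT, 89.4, 63.8 and 83.9 CPM in DTC, 258, 218 and 226 CPM in DTEC and 158, 156 and 160 CPM in KO. The DTC libraries were the lowest and the DTEC libraries the highest, without overlap, and KO overlapped untreated WT. As a log2 fold change this was -1.12 ± 0.124 in DTC (adjusted p = 1.84e-06), 0.45 ± 0.122 in DTEC (adjusted p = 0.00703) and 1.56 ± 0.125 between them (adjusted p = 1.82e-07).

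CTSH, an aminopeptidase, rose stepwise. It was at 36.6, 35.3 and 35.1 CPM in untreated WT, 67.0, 101 and 98.7 CPM in DTC and 124, 114 and 143 CPM in DTEC. All libraries of a later time lay above those of the earlier one. The log2 fold change was 1.32 ± 0.14 in DTC (adjusted p = 1.22e-06) and 1.83 ± 0.141 in DTEC (adjusted p = 1.75e-07). The step from DTC to DTEC (0.51 ± 0.137, adjusted p = 0.00542) was not called with total counts alone (adjusted p = 0.0544) or upper-quartile scaling (0.0576).

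CTSA, which protects NEU1 from degradation in a shared complex, rose by 1.37 ± 0.0958 in DTC (adjusted p = 1.82e-08) and 0.65 ± 0.0946 in DTEC (adjusted p = 5.91e-05). CTSB, a cysteine protease, rose by 0.42 ± 0.123 in DTC (adjusted p = 0.0074) and 0.43 ± 0.123 in DTEC (adjusted p = 0.00971). CTSD, the main aspartic protease, was at 237, 318 and 296 CPM in untreated WT, 227, 249 and 303 CPM in DTC and 371, 471 and 641 CPM in DTEC. DTC overlapped untreated WT and DTEC did not (0.80 ± 0.178, adjusted p = 0.00176). CTSZ, a carboxypeptidase, was at 195 ± 9.86, 215 ± 24.9 and 173 ± 11.8 CPM and was called in DTEC against DTC alone (-0.31 ± 0.0997, adjusted p = 0.0156). That call was lost without DTEC replicate 2 (adjusted p = 0.0704), without the filter on low counts (0.0688) and with the compared libraries fitted alone (0.0885).

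**Figure D2:**
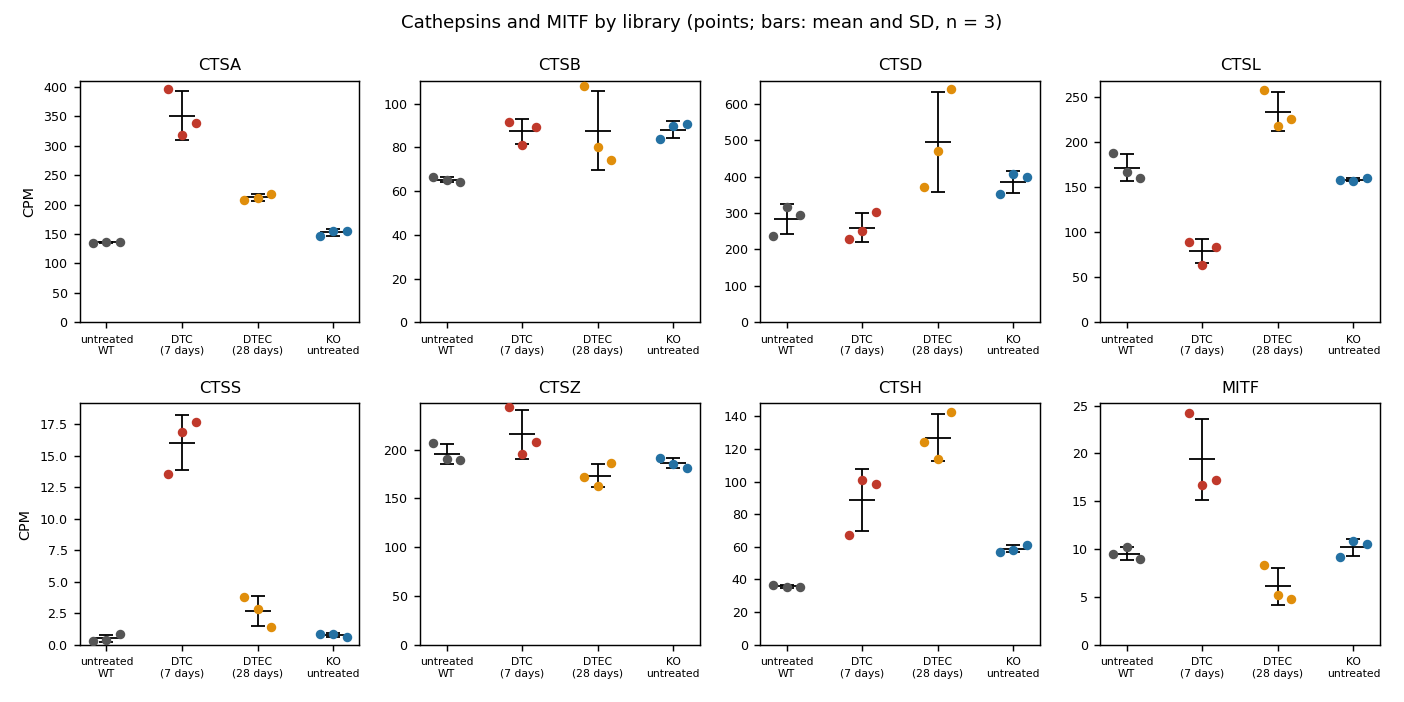
CPM of the 7 cathepsins and MITF (linear axes from 0) in each library (points) by group, with the mean and SD of 3 libraries as bars. CTSL dips in DTC and is highest in DTEC, CTSS and MITF peak in DTC, and CTSH and CTSD are highest in DTEC.

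Among the glycan and lipid hydrolases and their activator PSAP, 5 of 7 were called higher in DTC and in DTEC. GLA was called lower at both times. Of all genes, 34% were higher and 33.3% lower in DTC, and 26% and 26.3% in DTEC. NEU1, the lysosomal sialidase, was at 25.9, 24.3 and 24.0 CPM in untreated WT, 104, 120 and 142 CPM in DTC, 78.4, 67.6 and 72.3 CPM in DTEC and 32.2, 33.8 and 35.2 CPM in KO. Neither DTC nor DTEC overlapped the untreated libraries or each other. Its log2 fold change was 2.30 ± 0.119 in DTC (adjusted p = 1.09e-09), 1.56 ± 0.116 in DTEC (adjusted p = 1.3e-07) and -0.74 ± 0.113 between them (adjusted p = 7.41e-05).

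GLA, the galactosidase that degrades globotriaosylceramide, was at 84.9, 73.8 and 74.4 CPM in untreated WT, 63.9, 60.6 and 61.4 CPM in DTC and 31.5, 28.2 and 30.9 CPM in DTEC. Each group lay wholly below the one before it. On the log2 scale it changed by -1.36 ± 0.0938 in DTEC (adjusted p = 6.34e-08) and -1.04 ± 0.0934 from DTC to DTEC (adjusted p = 5.86e-07). The smaller DTC difference (-0.33 ± 0.0916, adjusted p = 0.00574) turned to 0.03 with total counts alone and was not called without untreated WT replicate 1 (adjusted p = 0.0658).

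PSAP, the precursor of the saposins that activate sphingolipid hydrolases, had the highest level per kilobase of the 7 in every group. It was at 738, 710 and 706 CPM in untreated WT, 2544, 1949 and 2314 CPM in DTC and 1648, 1492 and 1521 CPM in DTEC. The 3 groups did not overlap (1.66 ± 0.106, adjusted p = 7.99e-09 in DTC; 1.11 ± 0.105, adjusted p = 1.02e-06 in DTEC). ASAH1, acid ceramidase, rose by 1.38 ± 0.0982 in DTC (adjusted p = 2.18e-08) and 1.16 ± 0.0978 in DTEC (adjusted p = 3.61e-07), and GAA, the glucosidase that digests lysosomal glycogen, by 1.06 ± 0.12 and 1.08 ± 0.12. HEXA, a hexosaminidase subunit, rose by 0.50 ± 0.096 and 0.54 ± 0.096 (adjusted p = 0.000334 and 0.000326). GUSB, glucuronidase, was at 29.3 ± 1.59, 27.6 ± 3.03 and 31.1 ± 3.76 CPM and was not called.

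**Figure D3:**
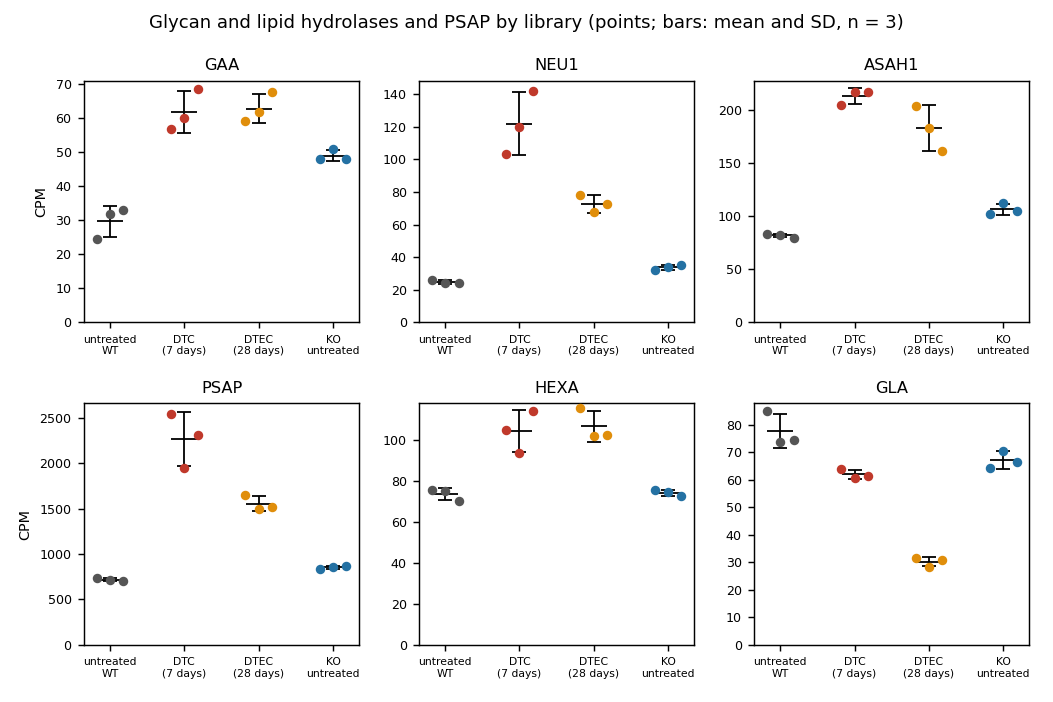
CPM of 6 genes, glycan and lipid hydrolases and their activator PSAP (linear axes from 0), in each library (points) by group, with the mean and SD of 3 libraries as bars. GAA, NEU1, ASAH1, PSAP and HEXA are above untreated WT in DTC and DTEC, while GLA steps down to about 30 CPM in DTEC.

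Of the 4 V-ATPase subunits, 3 were called higher in DTC, each below 2-fold, where 34% of all genes were higher. The other, ATP6AP1, was not called (adjusted p = 0.0889). ATP6V1A, the catalytic subunit of the pump's cytosolic domain, was at 86.1, 77.0 and 82.3 CPM in untreated WT, 163, 106 and 124 CPM in DTC and 94.2, 91.5 and 86.6 CPM in DTEC. All DTC libraries were above all untreated WT libraries, with DTC replicate 1 the highest (0.68 ± 0.129, adjusted p = 0.000315). ATP6V0D1, of the membrane domain, was at 76.7, 79.5 and 74.8 CPM in untreated WT, 101, 96.5 and 116 CPM in DTC and 64.1, 64.4 and 76.7 CPM in DTEC. It rose in DTC by 0.44 ± 0.102 (adjusted p = 0.00164) and fell from DTC to DTEC by 0.61 ± 0.102 (adjusted p = 0.000182), with no overlap between those groups. ATP6V1H, a regulatory subunit, rose in DTC by 0.31 ± 0.0976 (adjusted p = 0.0119; 0.0709 without the filter on low counts).

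ATP6AP1, an accessory protein needed for assembly of the pump, was at 109, 118 and 114 CPM in untreated WT, 139, 114 and 136 CPM in DTC and 137, 127 and 141 CPM in DTEC. DTC overlapped untreated WT, and every DTEC library was above it, by 0.25 ± 0.0963 (adjusted p = 0.0406). That call was lost without any 1 of the 6 libraries compared (adjusted p from 0.0508 to 0.131).

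Both cargo receptors rose in DTC, and from DTC to DTEC NBR1 rose and SQSTM1 fell. NBR1, a receptor for ubiquitinated cargo, was at 93.0, 85.1 and 81.6 CPM in untreated WT, 210, 123 and 132 CPM in DTC and 274, 254 and 228 CPM in DTEC. The groups were separated, with DTC replicate 1 well above the other DTC libraries. As a log2 fold change this was 0.84 ± 0.162 in DTC (adjusted p = 0.000378; 0.59 without DTC replicate 1), 1.54 ± 0.164 in DTEC (adjusted p = 3.47e-06) and 0.70 ± 0.161 from DTC to DTEC (adjusted p = 0.00205).

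SQSTM1, also called p62 and itself degraded by autophagy, was at 541, 578 and 546 CPM in untreated WT, 724, 694 and 729 CPM in DTC and 427, 499 and 583 CPM in DTEC. DTC was above both other groups, while DTEC overlapped untreated WT. The log2 fold change was 0.37 ± 0.108 in DTC (adjusted p = 0.00782) and -0.51 ± 0.108 from DTC to DTEC (adjusted p = 0.00117).

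All 4 ATG8-family genes were called higher in DTC and in DTEC (34% and 26% of all genes), and their order of abundance changed. Per kilobase in untreated WT the order was GABARAP (71.8 ± 4.47 CPM per kb), GABARAPL2 (37.7 ± 3.47), MAP1LC3B (16.3 ± 1.19) and GABARAPL1 (7.27 ± 0.518), with gaps larger than the SDs. In DTC it was GABARAP (141 ± 10.3), GABARAPL1 (117 ± 14.4), GABARAPL2 (92.1 ± 29.7) and MAP1LC3B (51.9 ± 1.94), where the SD ranges of GABARAP, GABARAPL1 and GABARAPL2 each overlapped the next. In DTEC GABARAP (152 ± 10.4) and GABARAPL2 (56.4 ± 1.90) were again first and second, and GABARAPL1 (30.2 ± 8.32) and MAP1LC3B (27.0 ± 8.0) did not differ beyond their spread.

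GABARAPL1 (ENSG00000139112, chr12:10212458-10223130 on GRCh38) was at 18, 16.3 and 15.7 CPM in untreated WT, 307, 256 and 245 CPM in DTC, 89.4, 66.8 and 51.5 CPM in DTEC and 20.1, 17.6 and 18 CPM in KO. The DTC libraries were far above all others, and all DTEC libraries were above all untreated ones. Its log2 fold change was 4.01 ± 0.181 in DTC (adjusted p = 3.75e-10), 2.05 ± 0.169 in DTEC (adjusted p = 3.11e-07) and -1.96 ± 0.165 from DTC to DTEC (adjusted p = 3.21e-07). KO overlapped untreated WT (0.16 ± 0.168, adjusted p = 0.7).

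MAP1LC3B, the LC3 protein commonly used to mark autophagosomes, was at 47.5, 42.9 and 41.3 CPM in untreated WT, 137, 146 and 136 CPM in DTC, 94.7, 71.5 and 51.8 CPM in DTEC and 36.4, 43.5 and 38.5 CPM in KO. The DTEC libraries spread widely, yet each lay above the untreated ones and below those of DTC. On the log2 scale it changed by 1.67 ± 0.167 in DTC (adjusted p = 7.2e-07), 0.73 ± 0.165 in DTEC (adjusted p = 0.002) and -0.94 ± 0.164 between them (adjusted p = 0.000244). In KO it was -0.15 ± 0.165 (adjusted p = 0.699). Whole values were absent for MAP1LC3B in all 12 libraries, which happens when a read fits a second gene as well and is divided.

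GABARAPL2 was at 41.8, 35.5 and 36.1 CPM in untreated WT, 61.9, 121 and 93.7 CPM in DTC, 58.7, 55.6 and 55.2 CPM in DTEC and 36.2, 36.1 and 34.0 CPM in KO. DTC replicate 1 lay close to the DTEC libraries and the other DTC libraries well above them. As a log2 fold change this was 1.29 ± 0.177 in DTC (adjusted p = 1.78e-05), 0.58 ± 0.176 in DTEC (adjusted p = 0.0128), -0.71 ± 0.175 from DTC to DTEC (adjusted p = 0.00346) and -0.09 ± 0.176 in KO (adjusted p = 0.841).

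GABARAP was at 126, 112 and 115 CPM in untreated WT, 211, 239 and 242 CPM in DTC, 256, 229 and 261 CPM in DTEC and 116, 116 and 122 CPM in KO. DTC and DTEC overlapped each other and stood above both untreated groups. The log2 fold change was 0.97 ± 0.0943 in DTC (adjusted p = 4.76e-07) and 1.08 ± 0.0945 in DTEC (adjusted p = 5.15e-07). From DTC to DTEC it was 0.11 ± 0.0933 (adjusted p = 0.342), a value whose sign turned with the scaling, and in KO 0.01 ± 0.0937 (adjusted p = 0.983).

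**Figure D4:**
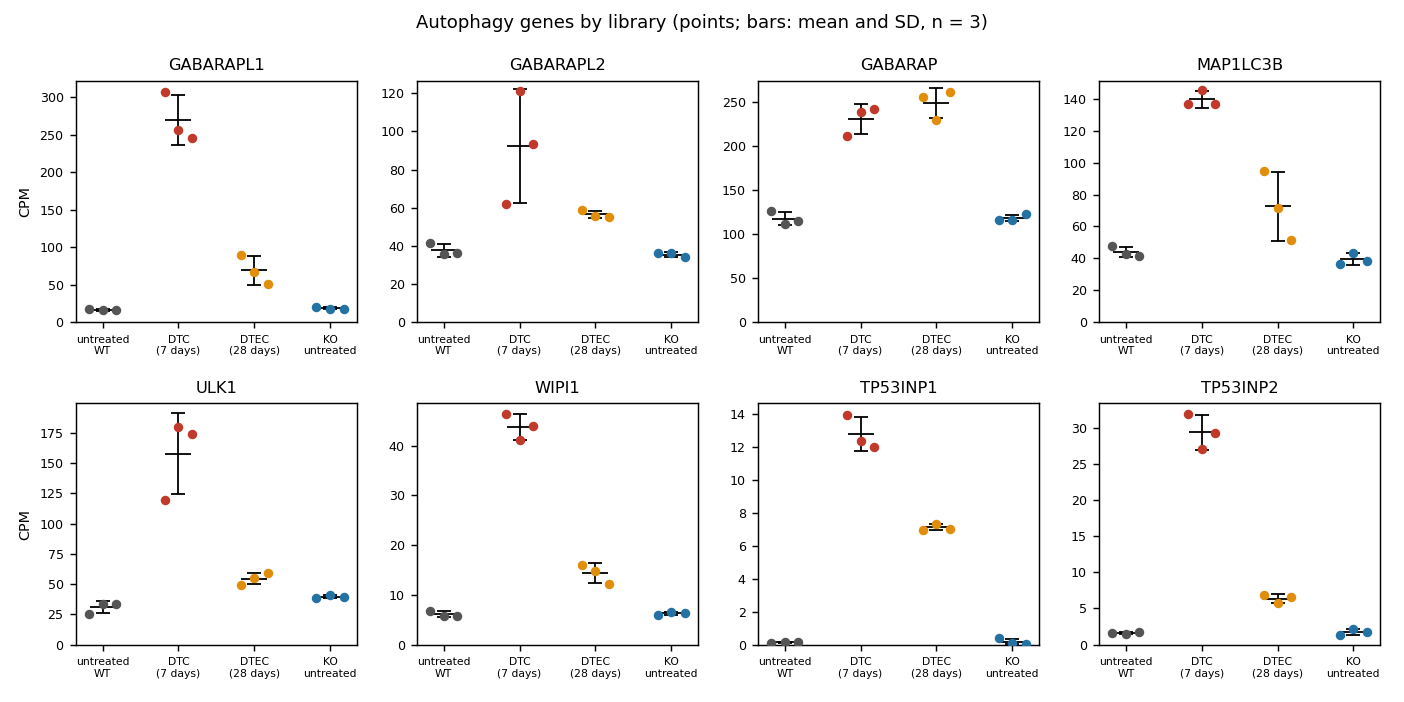
CPM of 8 autophagy genes (linear axes from 0) in each library (points) by group, with the mean and SD of 3 libraries as bars. All 8 are higher in DTC than in untreated WT, and in 7 of the 8, GABARAP being the exception, the DTEC mean lies between the other 2 means.

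Among genes of initiation and membrane supply, 4 of 7 were called higher and 1 lower in DTC (34% and 33.3% of all genes). The largest increases were in WIPI1 and ULK1. WIPI1 (ENSG00000070540, chr17:68420948-68457513), which binds phosphoinositide on the forming membrane, was at 6.75, 5.83 and 5.80 CPM in untreated WT, 46.4, 41.1 and 43.8 CPM in DTC and 16.0, 14.8 and 12.2 CPM in DTEC. The 3 groups were widely separated. Its log2 fold change was 2.83 ± 0.124 in DTC (adjusted p = 2.79e-10), 1.23 ± 0.122 in DTEC (adjusted p = 1.68e-06) and -1.61 ± 0.117 from DTC to DTEC (adjusted p = 7.47e-08).

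ULK1 (ENSG00000177169, chr12:131894651-131923167), the kinase that starts autophagy, was at 25.1, 33.8 and 33.4 CPM in untreated WT, 119, 180 and 174 CPM in DTC and 49.5, 54.9 and 59.0 CPM in DTEC. No library of DTC or DTEC overlapped another group. On the log2 scale it changed by 2.36 ± 0.158 in DTC (adjusted p = 1.26e-08), 0.83 ± 0.153 in DTEC (adjusted p = 0.000436) and -1.53 ± 0.153 between them (adjusted p = 1.56e-06).

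UVRAG, a partner of beclin 1 in the lipid kinase complex, was at 34.3, 31.5 and 34.2 CPM in untreated WT, 30.5, 22.0 and 26.3 CPM in DTC and 43.2, 36.7 and 36.6 CPM in DTEC. DTC was lowest without overlap, and the rise from DTC to DTEC was 0.57 ± 0.12 (adjusted p = 0.00115). The DTC difference from untreated WT (-0.34 ± 0.12, adjusted p = 0.02) turned to 0.01 with total counts alone. It was not called without untreated WT replicate 1 (adjusted p = 0.0917), untreated WT replicate 3 (0.0871), DTC replicate 2 (0.204; log2 fold change -0.17) or DTC replicate 3 (0.0876).

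The other members of this group changed little. ATG2A, which transfers lipid into the growing membrane, rose by 0.62 ± 0.151 in DTC (adjusted p = 0.00216). WIPI2, which recruits the conjugation machinery, rose by 0.25 ± 0.0842 in DTC (adjusted p = 0.0166) and 0.48 ± 0.0843 in DTEC (adjusted p = 0.000285). Its DTC call was lost without untreated WT replicate 3 (adjusted p = 0.0514), without the filter on low counts (0.141) and with the compared libraries fitted alone (0.0582). BECN1, which encodes beclin 1, was at 74.3 ± 6.96, 83.8 ± 0.627 and 74.8 ± 2.27 CPM, and ATG9A, a lipid scramblase on donor vesicles, at 65.2 ± 4.91, 61.3 ± 8.87 and 75.7 ± 4.92 CPM. Neither was called against untreated WT. ATG9A was called higher in DTEC than in DTC (0.30 ± 0.11, adjusted p = 0.0291), a call lost in 10 of the 14 alternatives.

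Of the 4 conjugation genes, 1 was called higher and 2 lower in DTC, and 1 higher and 1 lower in DTEC. Of all genes, 34% and 33.3% were so called in DTC, and 26% and 26.3% in DTEC. Counts over 4 genes show no trait of the group. ATG16L1, which places the conjugating complex on the membrane, was at 104, 108 and 108 CPM in untreated WT, 51.4, 39.8 and 41.3 CPM in DTC and 57.0, 54.2 and 61.0 CPM in DTEC. Both treated groups were well below untreated WT, by -1.27 ± 0.108 in DTC (adjusted p = 1.24e-07) and -0.89 ± 0.107 in DTEC (adjusted p = 9.29e-06). The rise from DTC to DTEC (0.38, adjusted p = 0.00779) was lost in 6 of the 14 alternatives. KO was at 80.1, 90.4 and 86.0 CPM, also below every untreated WT library, with a log2 fold change that was not called (adjusted p = 0.118).

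ATG7, the activating enzyme of both conjugation reactions, was at 53.4, 52.3 and 54.2 CPM in untreated WT, 41.6, 34.4 and 45.2 CPM in DTC and 65.8, 63.1 and 64.3 CPM in DTEC. The 3 groups did not overlap. As a log2 fold change this was -0.40 ± 0.101 in DTC (adjusted p = 0.00279; -0.04 with total counts alone), 0.27 ± 0.1 in DTEC (adjusted p = 0.0339) and 0.67 ± 0.101 between them (adjusted p = 6.7e-05). The DTEC call was lost without any 1 of the 6 libraries compared (adjusted p from 0.0653 to 0.0973).

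ATG12, the ubiquitin-like protein joined to ATG5, was at 42.1, 41.0 and 40.4 CPM in untreated WT, 46.6, 71.3 and 57.7 CPM in DTC and 34.9, 35.2 and 35.1 CPM in DTEC. DTC was above and DTEC below every untreated WT library. The rise in DTC was 0.51 ± 0.125 (adjusted p = 0.00231), the fall from DTC to DTEC was -0.74 ± 0.125 (adjusted p = 0.000188), and DTEC against untreated WT was not called (adjusted p = 0.135). ATG5 was at 80.6 ± 3.06, 89.7 ± 23.3 and 67.2 ± 5.34 CPM and was called in neither treated group against untreated WT. It was called lower in DTEC than in DTC (-0.42, adjusted p = 0.0277), a call lost in 3 of the 14 alternatives.

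VPS18, a core subunit of the complexes that tether vesicles to endosomes and lysosomes, was at 16.2, 18.1 and 16.4 CPM in untreated WT, 26, 23.0 and 24.5 CPM in DTC and 17.4, 17.9 and 21.4 CPM in DTEC. DTC stood above both other groups, and DTEC overlapped untreated WT. It rose by 0.54 ± 0.108 in DTC (adjusted p = 0.000511) and changed by -0.37 ± 0.107 from DTC to DTEC (adjusted p = 0.00916).

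The p53-inducible regulators TP53INP1 and TP53INP2, which bind ATG8 proteins, had among the largest changes of the 45 genes. TP53INP1 was at 0.119, 0.135 and 0.144 CPM in untreated WT, only 4, 4 and 5 counts, and at 13.9, 12.4 and 12 CPM in DTC, 6.97, 7.33 and 7.04 CPM in DTEC and 0.386, 0.129 and 0.0553 CPM in KO. DTC and DTEC were separated from the untreated groups and from each other. The log2 fold change was 6.54 ± 0.334 in DTC (adjusted p = 9.89e-10) and 5.70 ± 0.337 in DTEC (adjusted p = 1.81e-08), sizes that rest on the few untreated counts.

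TP53INP2 (ENSG00000078804, chr20:34704290-34713439) was at 1.67, 1.48 and 1.76 CPM in untreated WT, 31.8, 27.0 and 29.2 CPM in DTC and 6.82, 5.69 and 6.62 CPM in DTEC. The groups did not overlap. Its log2 fold change was 4.16 ± 0.162 in DTC (adjusted p = 1.23e-10), 1.96 ± 0.16 in DTEC (adjusted p = 2.84e-07) and -2.20 ± 0.143 from DTC to DTEC (adjusted p = 2.52e-08). Of the 7 members called higher in DTC by at least 4-fold, NEU1 had CACGTG in the promoter window described above. GABARAPL1, ULK1, WIPI1 and TP53INP2 did not, and for CTSS and TP53INP1 no promoter was at hand.

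Replicate spread differed between groups. The median coefficient of variation over the 45 members was lowest in KO (4.49%), followed by untreated WT (6.22%), DTEC (8.04%) and DTC (10.4%). DTC replicate 1 was the highest DTC library for 24 members and the lowest for 15. It was at least 1.5-fold above both others in 1 member, NBR1, and at least 1.5-fold below both in 1, GABARAPL2.

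In the TDP1 knockout line without drug, 4 members were called higher: CTSH, GAA, NEU1 and ASAH1, each below 2-fold. GAA was at 24.4, 31.8 and 32.9 CPM in untreated WT and 48.0, 51.0 and 48.0 CPM in KO (0.72 ± 0.12, adjusted p = 0.00344). CTSH was at 57.0, 58.0 and 61.1 CPM in KO against 35.1 to 36.6 CPM in untreated WT (0.72 ± 0.139, adjusted p = 0.00903). In both genes every KO library exceeded every untreated WT library, and both were called in every alternative run.

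NEU1 (0.45 ± 0.115, adjusted p = 0.0424) and ASAH1 (0.38 ± 0.0969, adjusted p = 0.041) were above every untreated WT library too, but their calls were lost without any 1 of the 6 libraries compared. The adjusted p was then 0.0794 to 0.145 for NEU1 and 0.0715 to 0.18 for ASAH1. CTSB, at 83.8, 89.8 and 90.9 CPM in KO and 64.2 to 66.3 CPM in untreated WT, was not called (0.44 ± 0.123, adjusted p = 0.0642) but was in 7 of the 14 alternatives. Without overlap of libraries, 13 members were higher and 4 lower in KO, where 15.8% and 19.9% of all genes were. All 4 genes called in KO were also called higher in DTC and DTEC, comparisons that share the untreated WT libraries. This overlap was not counted over all genes, so it has no reference and shows no likeness of KO to treated cells.

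A wider list of 138 other lysosome and autophagy genes, 136 of them tested, was counted in the same way. Like the members, it was chosen with earlier results of these data known, so it is no independent check of them. In DTC 74 were called higher and 23 lower (54.4% and 16.9%, against 34% and 33.3% of all genes). In DTEC 60 were higher and 23 lower (44.1% and 16.9%, against 26% and 26.3%), and from DTC to DTEC 27 and 57 (19.9% and 41.9%, against 28.8% and 26.6%). In KO 4 were higher and 1 lower (2.94% and 0.735%), near the 2.76% and 1.55% of all genes.

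Other lysosomal hydrolases were called higher in 20 of 28 cases and lower in 4 in DTC, and 19 and 2 in DTEC. CTSO, a little-studied cathepsin, was at 0.372 ± 0.0897 CPM in untreated WT (10 to 14 counts) and reached 11.6 ± 1.53 CPM in DTC (4.96 ± 0.31, adjusted p = 6.46e-09) and 6.64 ± 1.56 CPM in DTEC. From DTC to DTEC, CTSV fell (-2.46 ± 0.137, adjusted p = 5.79e-09) and CTSC, the protease that activates granule serine proteases, rose (2.17 ± 0.105, adjusted p = 1.47e-09).

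Other V-ATPase genes had 10 of 17 higher and 2 lower in DTC, 5 and 5 in DTEC, and 1 and 10 from DTC to DTEC. The DTEC shares, 29.4% in each direction, were near the 26% higher and 26.3% lower of all genes. ATP6V1B1, an isoform known from kidney intercalated cells, was at 0.174 ± 0.0328 CPM in untreated WT, only 5 to 7 counts, at 6.64 ± 1.93 CPM in DTC (5.23 ± 0.305, adjusted p = 3.46e-09) and at 6.95 ± 0.644 CPM in DTEC. The size of its fold rests on those few counts, and it passed the filter on low counts only through the treated groups. ATP6V0D2, an isoform known from osteoclasts, rose in DTC (3.05 ± 0.303, adjusted p = 6.36e-07) and fell from DTC to DTEC (-4.49 ± 0.348, adjusted p = 1.36e-07), with 9 to 17 counts in untreated WT and 4 to 5 in DTEC.

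Other selective autophagy receptors had 7 of 12 higher and 0 lower in DTC, and 8 and 0 in DTEC. RETREG1, a receptor for fragments of the endoplasmic reticulum, was at 1.11 ± 0.419 CPM in untreated WT and reached 52.1 ± 11.3 CPM in DTC (5.55 ± 0.274, adjusted p = 1.24e-09) and 10.1 ± 2.53 CPM in DTEC. OPTN, optineurin, went from 3.14 ± 0.539 to 59.2 ± 6.66 CPM (4.23 ± 0.176, adjusted p = 1.87e-10) and 14.2 ± 2.46 CPM.

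The other autophagy machinery had 10 of 24 higher and 8 lower in DTC, and 7 and 7 in DTEC. These shares (41.7% and 33.3%, then 29.2% each) were near those of all genes (34% and 33.3%, then 26% and 26.3%). ZFYVE1, a marker of omegasomes, where autophagosomes form, rose most in this list (2.75 ± 0.126, adjusted p = 4.08e-10). Other lysosomal membrane genes had 12 of 18 higher and 3 lower in DTC, among them GPNMB at 23.8 ± 0.887 CPM against 1.90 ± 0.172 CPM (3.64 ± 0.264, adjusted p = 3.61e-08). Genes of mTORC1 and nutrient sensing had 6 of 18 higher and 3 lower (33.3% higher, near the 34% of all genes), genes of fusion with the lysosome 6 of 13 and 1, and genes that sort hydrolases 3 of 6 and 2. In KO the called genes of these lists were MAN2B1, CTSF, LAMP3 and CLN3, higher, and PIK3C3, lower.

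**Figure D5:**
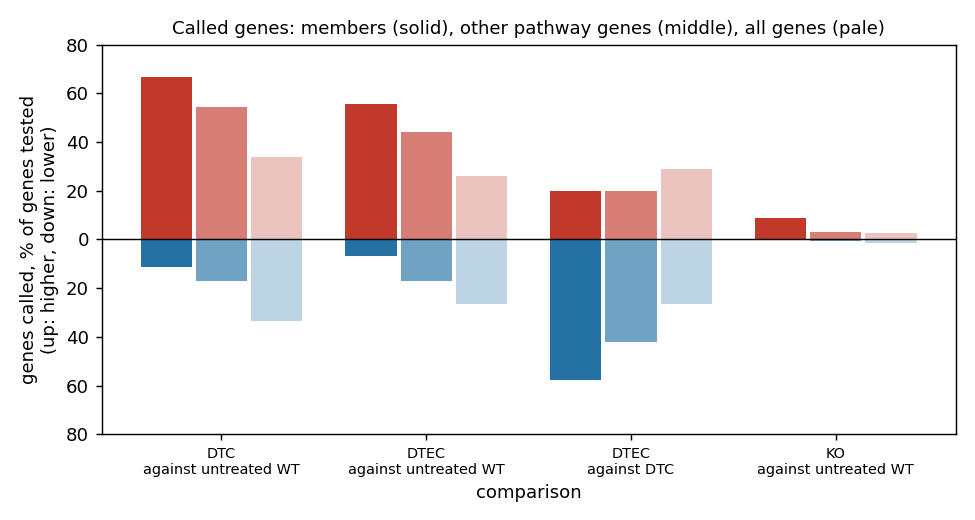
Share of genes called at an adjusted p under 0.05 (percent of those tested; bars above 0 are higher, bars below 0 lower) for the 45 members, the 136 other pathway genes and all 17115 genes in each comparison. In DTC 66.7% of the members, 54.4% of the other pathway genes and 34% of all genes were higher. Both lists were chosen with earlier results of these data known.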

How the data were processed

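The members and gene lists were chosen with earlier results of these data known. The authors deposited expected counts (estimated, unscaled reads per gene) for polyadenylated RNA. RSEM 1.3.1, Bowtie2 2.5.2, DESeq2 1.40.2 and GRCh38 are named in the submitters' processing notes, without roles; the annotation release is not given in the sources used here. The estimated counts were rounded to whole counts. Genes passed edgeR's filterByExpr by group (minimum count 10), and 17115 were fitted over all 12 libraries (totals 25572691 to 38373679) in edgeR 4.0.16 (R 4.3.3) with TMM scaling and robust quasi-likelihood tests, Benjamini-Hochberg adjusted over all genes. CPM uses TMM-scaled totals, and the floor of 3 counts is 0.0824 to 0.115 CPM, covering counting error only. The biological coefficient of variation was 14.6%. Gene positions are of GENCODE 29 genes with the same identifier, and 62700 identifiers (99.9%) had a symbol. Levels per kilobase divide CPM by the longest coding transcript in GENCODE basic. Values are given by library for the called, non-overlapping member with the largest change in each direction per role group and comparison, and for all MiT and ATG8 genes; ULK1, PSAP, CTSD, CTSH in the treated groups and TP53INP2 in DTC and DTEC were added after their values were seen. The 2 called genes with the largest change could be named per other list. Marker lists were epithelial, macrophage and blood cell, fibroblast, endothelial and melanocyte. Reads of CTSB, CTSD, HEXA, NBR1, MAP1LC3B, ATG2A and ATG9A, with at most 3 of 12 values whole, may be shared with similar or overlapping genes. Alternatives were total-count and upper-quartile scaling, 2 other filters, the compared libraries alone, DESeq2 1.42.0, limma-voom (limma 3.58.1), a replicate block and leaving out each library. The fit was tested on simulated data. Figures were drawn with matplotlib 3.10.9.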

Additional observations from a re-analysis of the deposited data

Results flagged for a closer look

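MITF, CTSL and ATG7 differed between the 2 times on erlotinib: each was called in opposite directions against untreated WT at 7 and at 28 days, and the difference between the times was tested directly in DTEC against DTC. The log2 fold change of DTEC against DTC was -1.67 for MITF, 1.56 for CTSL and 0.67 for ATG7. CTSL kept both calls against untreated WT in every alternative. MITF in DTEC against untreated WT lost its call without DTEC replicate 2 or 3 and with total counts alone. ATG7 lost its DTEC call without any 1 of the 6 libraries and its DTC call with total counts alone and with upper-quartile scaling.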

How the results depend on the processing

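The call was kept in every alternative by 30 of the 35 members called in DTC, 24 of 28 in DTEC, 26 of 35 in DTEC against DTC and 2 of 4 in KO. Those lost somewhere were GLA, ATP6V1H, UVRAG, WIPI2 and ATG7 in DTC; MITF, LAMP2, ATP6AP1 and ATG7 in DTEC; TFEB, CTSZ, CTSH, ATP6V1H, ATG2A, ATG9A, WIPI2, ATG5 and ATG16L1 in DTEC against DTC; and NEU1 and ASAH1 in KO. With total counts alone the DTC log2 fold change turned to 0.0291 for GLA (adjusted p = 0.78) and 0.0114 for UVRAG (adjusted p = 0.937), and GABARAP in DTEC against DTC to -0.0792 (-0.067 with upper-quartile scaling). Members lower in DTC were 2 with either of those scalings and 3 to 5 when 1 library was left out, and members higher in DTEC against DTC were 5 with either scaling. With the compared libraries fitted alone, members lower in DTEC were 5, and in KO 12 members were higher and 2 lower. The count of KO calls over all genes was 738, and it was 1147 without the filter, 2656 with the compared libraries alone, 1148 with DESeq2 and 321 to 426 without 1 library, when 2 members were called higher in each case. In KO the log2 fold change of GABARAPL2 ran from -0.113 to 0.00126 when 1 library was left out, above 0 without untreated WT replicate 1 only, and that of GABARAP from -0.00458 to 0.0747, below 0 without untreated WT replicate 2 only. The cause was not tested. Same-numbered libraries of different groups deviated together weakly at most (correlation of deviations -0.03 to 0.179, over 0.1 in 4 of 18 pairs). For libraries of different numbers it was -0.187 to 0.118, so these values do not exclude a weak pairing by number. The main fit used no pairing. With a replicate block the calls over all genes were 11775 in DTC, 9255 in DTEC, 9732 in DTEC against DTC and 887 in KO, and the members called higher and lower were 31 and 5, 25 and 3, 9 and 26, and 6 and 0. Depth limits CTSS and TP53INP1, with 10 to 28 and 4 to 5 counts in untreated WT, and of the other genes named CTSO, ATP6V1B1 and ATP6V0D2.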
